A study of Mus musculus with 4 samples.

Results

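The genes described here are 9 members of the fibrinolysis and pericellular protease systems, *Plau*, *Plat*, *Plaur*, *Serpine2*, *F3*, *Mmp2*, *Mmp9*, *Mmp14* and *Timp2*, out of 39179 genes counted. They were given by gene symbol, and all 9 were found in the files. RNA-seq was performed on 2 libraries of parental B16F1 cells, a mouse melanoma line, as controls, and on 2 libraries of tumor repopulating cells (TRCs). TRCs were grown from single B16F1 cells for 5 days in soft 3D gels of 90 Pa stiffness, made from salmon fibrinogen and thrombin, and were taken out of the gel before RNA extraction. Parental cells were cultured in 2D. Gel, growth as spheroids, survival of only some seeded cells and isolation from the gel all separate the groups in the same way, so they cannot be told apart. The labels give the numbers 1 and 3 to the libraries of each group. They do not say whether these came from separate cultures, so p-values measure only the spread between these libraries, which may be technical.

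A cell embedded in fibrin can open the gel with the plasminogen system. The activators urokinase (*Plau*) and tissue plasminogen activator (*Plat*) cut plasminogen to plasmin, the main enzyme that digests fibrin, and serpins hold the activators in check. Urokinase works on the cell surface when bound to its receptor (*Plaur*), and tissue factor (*F3*) starts the coagulation cascade that ends in fibrin. Matrix metalloproteases form a second system. The membrane-bound enzyme of *Mmp14* cleaves matrix proteins including fibrin and activates the secreted gelatinase of *Mmp2*, and the protein of *Timp2* both inhibits metalloproteases and links the other two.

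Each library held between 35948295 and 43511554 counts on genes. Levels are given as CPM, counts scaled to library size with edgeR's TMM factors. Before TMM scaling, 3 counts, taken as the smallest detectable number, equal 0.0689 to 0.0835 CPM, a limit that covers counting error alone. Alignments without a unique position went to no gene and made up from 15.2% to 25.2% of a library, with the highest share in TRC replicate 3. All 7 melanocyte lineage markers were detected, with summed levels of 15712 to 18915 CPM in control cells and 23969 to 26669 CPM in TRCs, and *Dct* alone was called, as higher in TRCs. Summed over their lists, markers of leukocytes reached 1.64 to 4.18 CPM, of endothelial cells 0.567 to 2.5 CPM and of platelets 0.652 to 1.12 CPM in any library. Most of each of these sums came from 1 marker, *Cd68* (62 to 183 counts), *Vwf* (13 to 102) and *Itga2b* (19 to 44). *Ptprc*, *Adgre1*, *Itgam*, *Cdh5*, *Kdr* and *Ppbp* had 0 counts throughout. The 8 fibroblast markers summed to 10.1 and 12.1 CPM in control cells and to 3.24 and 5.82 CPM in TRCs, and 1 of them, *Col1a2*, was called, as lower in TRCs. Whether these shifts bear on the protease genes was not tested.

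*Plat* was called as higher in TRCs, and no other member passed the test. The filter removed genes with less than 1 CPM in at least 3 libraries and kept 7 members, all except *Plau* and *Mmp9*. In edgeR's exact test, with p-values adjusted by Benjamini-Hochberg over the 11483 genes that passed (FDR), 1 of these 7 was called at FDR under 0.05, against 15.9% of all genes tested. No member was called lower, where 8.81% of all genes tested were called higher and 7.05% lower. Before adjustment, p was under 0.05 for 2 members that were higher and for 1 that was lower in TRCs. Both TRC libraries lay on one side of both control libraries for 4 of the 7 members, against 60.6% of all genes tested. The median log2 fold change of the 7 was 0.42, against 0.00 over all genes tested.

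**Figure D1:**
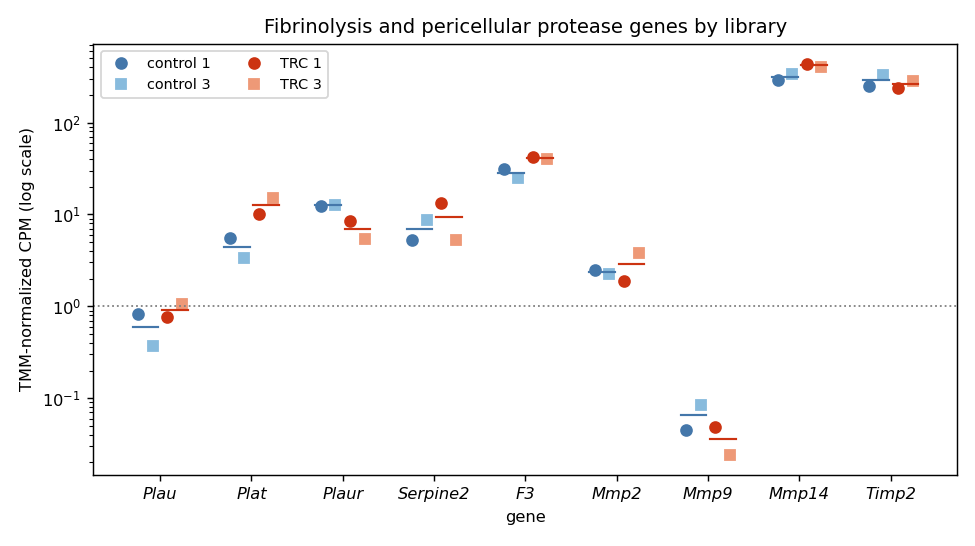
TMM-normalized CPM (log scale) of the 9 genes in each library; lines are group means of 2 libraries and the dotted line marks 1 CPM. *Plat* lies between 3.37 and 5.53 CPM in control cells and between 10.2 and 15 CPM in TRCs, and *Mmp9* lies below 0.1 CPM in every library.

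Groups did not overlap for *Plat*, *Plaur*, *F3* and *Mmp14*, and for the latter 3 the promoter is shown, as the 250 bases before the RefSeq start (GRCm38.p6). The promoter table used here matched 5 of the 9 members, these 3 and *Serpine2* and *Timp2*, while *Plau*, *Plat*, *Mmp2* and *Mmp9* were not matched. Sequences read 5′ to 3′ on the strand of the gene, and capitals mark matches on either strand to GGGCGG (the GC box), TGANTCA (bound by AP-1 factors), ACGTG or GCGTG (cores of hypoxia response elements) and TATAAA. Matches may share bases with each other. They lie at chr7:24462233-24462482, chr3:121723287-121723536 and chr14:54431348-54431597, all on the plus strand.
Plaur: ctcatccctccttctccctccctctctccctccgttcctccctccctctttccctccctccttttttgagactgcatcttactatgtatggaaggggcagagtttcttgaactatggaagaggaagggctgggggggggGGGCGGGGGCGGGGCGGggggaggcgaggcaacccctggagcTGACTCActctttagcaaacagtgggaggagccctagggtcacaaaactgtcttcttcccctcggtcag
F3: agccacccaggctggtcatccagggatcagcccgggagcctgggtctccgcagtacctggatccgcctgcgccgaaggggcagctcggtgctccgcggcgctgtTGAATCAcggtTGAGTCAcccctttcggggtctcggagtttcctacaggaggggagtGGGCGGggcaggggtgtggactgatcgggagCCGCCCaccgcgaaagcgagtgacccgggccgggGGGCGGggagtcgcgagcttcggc
Mmp14: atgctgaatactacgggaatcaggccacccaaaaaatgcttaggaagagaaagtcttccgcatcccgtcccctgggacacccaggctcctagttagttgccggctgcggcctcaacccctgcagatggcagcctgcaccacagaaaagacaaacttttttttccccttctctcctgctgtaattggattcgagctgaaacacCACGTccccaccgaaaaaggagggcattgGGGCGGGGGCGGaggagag

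*Plaur* had 3 matches to the GC box and 1 to TGANTCA, and *F3* had 3 and 2. *Mmp14* had 2 matches to the GC box, 1 to ACGTG and 0 to TGANTCA. Of the matched windows not shown, that of *Serpine2* had 6 matches to the GC box and 0 to TGANTCA. That of *Timp2* had 1 match to the GC box, 1 to GCGTG and 0 to TGANTCA. Of 32851 RefSeq promoter windows of this length, 32.7% held GGGCGG, 6.75% TGANTCA, 16.6% ACGTG, 28.2% GCGTG and 12.4% TATAAA. A match describes the letters of the window and not binding. No member shared an exon base with another annotated gene, but the printed *F3* window overlaps an exon of *Gm43823* on the minus strand.

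*Plat* (ENSMUSG00000031538, GRCm38 chromosome 8 from 22757727 to 22782844, plus strand) encodes tissue plasminogen activator, which is most active when bound to fibrin. It had 5.53 and 3.37 CPM in control replicates 1 and 3, and 10.2 and 15 CPM in TRC replicates 1 and 3. The groups did not overlap, and the lowest TRC library was well above the highest control library. The means were 4.45 ± 1.53 CPM (SD, n = 2) and 12.6 ± 3.39 CPM (SD, n = 2), a 2.82-fold increase and a log2 fold change of 1.49 (SE 0.39, edgeR exact test FDR = 0.00644). The direction was the same in each of the 10 alternative fits, and the call was kept in 7 of them. Without control replicate 3 the log2 fold change was 1.18 (edgeR exact test FDR = 0.136), and without TRC replicate 3 it was also 1.18 (FDR = 0.205). In bulk RNA, a higher level per cell and a larger share of cells that express the gene cannot be told apart.

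*Plau* (ENSMUSG00000021822, chromosome 14 from 20836660 to 20843385), the gene of urokinase, was close to the limit of the filter and was not tested in the main fit. It had 37 and 13 counts in control cells and 32 and 44 in TRCs, or 0.832, 0.368, 0.77 and 1.06 CPM in the same order. The groups overlapped, because control replicate 1 was above TRC replicate 1. When no filter was applied, the log2 fold change was 0.56 (edgeR exact test FDR = 0.786), so no difference was detected with these few counts and libraries. Counts of *Plat* exceeded those of *Plau* by 6.65 and 9.15 times in control cells and by 13.2 and 14.2 times in TRCs. These ratios do not depend on the scaling of libraries, but they rest on few *Plau* counts and are not corrected for length. They were computed after the counts had been seen.

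*Plaur* (ENSMUSG00000046223, chromosome 7 from 24462484 to 24475968), the urokinase receptor anchored to the membrane, was at 12.4 and 12.8 CPM in control cells and at 8.54 and 5.46 CPM in TRCs. Both TRC libraries were below both control libraries, which lay close together. The means were 12.6 ± 0.31 CPM and 7 ± 2.18 CPM (SD, n = 2 each), a log2 fold change of −0.85 (SE 0.34). With an unadjusted p of 0.0292 and an FDR of 0.124 in edgeR's exact test it was not called. The sign was negative in all 10 alternative fits, with FDR values from 0.0693 to 0.61.

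*Serpine2* (ENSMUSG00000026249, chromosome 1 from 79794197 to 79861180, minus strand) encodes protease nexin, a serpin that blocks thrombin and the plasminogen activators. Its levels were 5.31 and 8.59 CPM in control cells and 13.4 and 5.24 CPM in TRCs. The 2 TRC libraries were the highest and the lowest of all 4, and replicates differed more than the group means (log2 fold change 0.42, SE 0.49, edgeR exact test FDR = 0.63). Without TRC replicate 1 the sign turned, to −0.42.

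*F3* (ENSMUSG00000028128, chromosome 3 from 121723537 to 121735048, plus strand), the gene of tissue factor, had 31.5 and 24.7 CPM in control cells and 42.1 and 40 CPM in TRCs. The groups did not overlap, and the TRC replicates were nearly equal. The means were 28.1 ± 4.81 CPM and 41.1 ± 1.44 CPM (SD, n = 2 each), with a log2 fold change of 0.55 (SE 0.24). The unadjusted p was 0.0305 and the FDR was 0.127 in edgeR's exact test, so *F3* was not called, and FDR values ranged from 0.0787 to 0.545 in the 10 alternative fits.

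**Figure D2:**
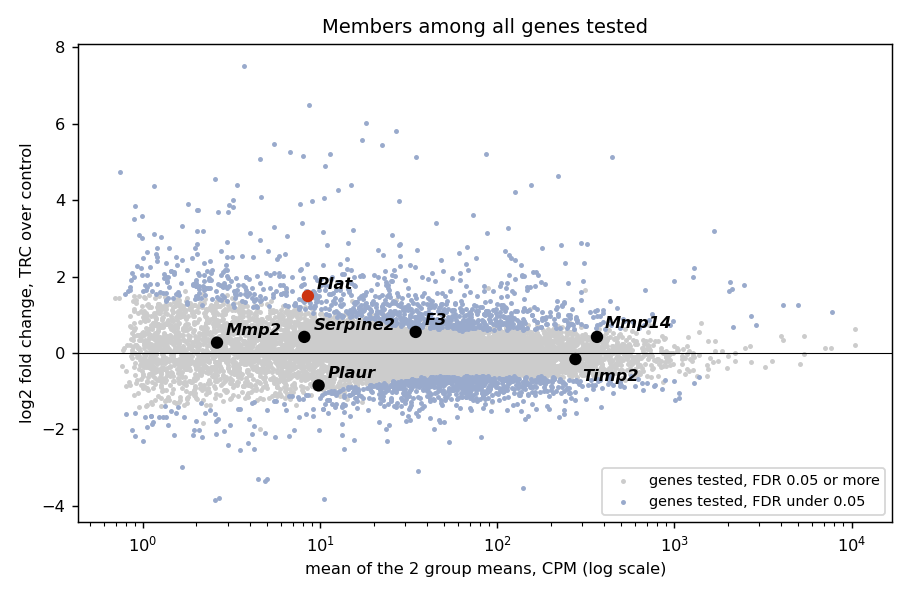
Mean of the 2 group means (CPM, log scale) against the log2 fold change of TRCs over control cells for the 11483 genes tested, with the 7 members tested marked. *Plat* (red, FDR = 0.00644 in edgeR's exact test) lies at 1.49, while *Plaur* at −0.85 and *F3* at 0.55 (black) lie among genes that were not called.

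*Mmp14* (ENSMUSG00000000957, chromosome 14 from 54431612 to 54445364, plus strand) was the most abundant protease of the set. It had 290 and 335 CPM in control cells and 438 and 398 CPM in TRCs, without overlap. The increase from 313 ± 31.6 CPM to 418 ± 28.2 CPM (SD, n = 2 each) gave a log2 fold change of 0.42 (SE 0.20), and with an unadjusted p of 0.0702 and an FDR of 0.223 in edgeR's exact test it was not called. *Timp2* (ENSMUSG00000017466, chromosome 11 from 118301069 to 118355740, minus strand) had 250 and 331 CPM in control cells and 239 and 282 CPM in TRCs. Its groups overlapped (log2 fold change −0.16, SE 0.23, edgeR exact test FDR = 0.729), and the sign turned to positive without control replicate 3, at 0.06.

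Within each library, *Mmp14* counts divided by *Timp2* counts were 1.16 and 1.01 in control cells and 1.83 and 1.41 in TRCs. Both TRC values were higher than both control values. The difference of the mean log2 ratios was 0.57, and with each library left out it lay between 0.38 and 0.76. This ratio was formed after the counts had been seen, and an exact permutation test of 2 against 2 libraries cannot give a two-sided p below 0.333, so it is given as a description.

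**Figure D3:**
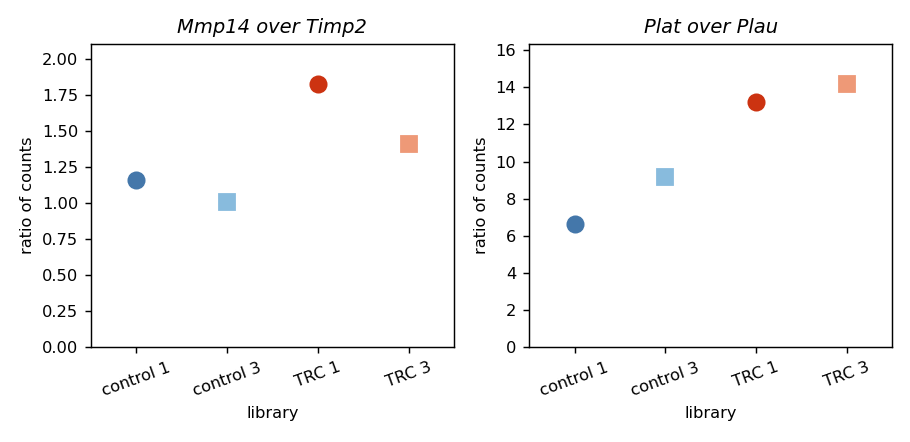
Ratio of counts within each library (linear axes from 0) for *Mmp14* over *Timp2* and for *Plat* over *Plau*. In both plots the 2 TRC libraries lie above the 2 control libraries, at 1.41 and 1.83 for the first ratio and at 13.2 and 14.2 for the second.

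The gelatinases were low. *Mmp2* (ENSMUSG00000031740, chromosome 8 from 92827291 to 92853420) had 2.47 and 2.27 CPM in control cells and 1.88 and 3.85 CPM in TRCs. The TRC libraries enclosed the control libraries, and the log2 fold change of 0.27 (SE 0.56, edgeR exact test FDR = 0.781) turned to −0.35 without TRC replicate 3. *Mmp9* (ENSMUSG00000017737, chromosome 2 from 164940780 to 164955850) had 2 and 3 counts in control cells and 2 and 1 in TRCs. No library was above 3 counts, the smallest number taken as detectable, so no fold change is given.

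The levels of different genes were compared as CPM per kb of exon, with the union of all annotated exons as the length. In control cells the order was *Timp2* (74.6), *Mmp14* (52.5), *F3* (11.1), *Plaur* (4.81), *Serpine2* (0.838), *Plat* (0.713), *Mmp2* (0.703), *Plau* (0.254) and *Mmp9* (0.0184), all as mean CPM per kb. The ranges of the 2 libraries overlapped between *Serpine2* and *Plat* and between *Plat* and *Mmp2*, which therefore had no clear order. In TRCs *Mmp14* (70.1) and *Timp2* (66.9) overlapped at the top and *F3* (16.2) was again the third. *Plaur* (2.67) and *Plat* (2.01) overlapped in TRCs, as did *Serpine2* (1.12) and *Mmp2* (0.849), while *Plau* (0.386) and *Mmp9* (0.0102) were again the lowest. With the longest annotated transcript as the length, the mean over all libraries of *Mmp14* was 113 CPM per kb and that of *Timp2* 74.3, where the union of exons gave 61.3 and 70.8. Over all libraries, *Plat* and *Serpine2* had means of 1.36 and 0.98 CPM per kb with the union of exons. With the longest transcript these means were 2.11 and 2.40. The order of the means over all libraries thus depends on the length used within both pairs of genes. Levels within each group were not computed with the longest transcript.

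**Figure D4:**
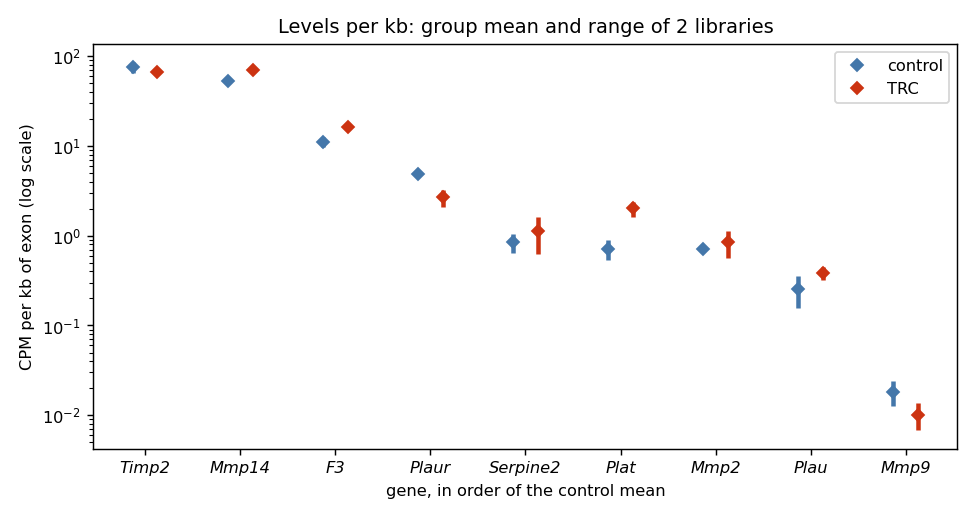
CPM per kb of exon (log scale) of the 9 genes, in order of the control mean; diamonds are means and bars span the 2 libraries of a group. *Timp2*, *Mmp14* and *F3* have means above 10 in both groups, and *Plat* moves from 0.713 in control cells to 2.01 in TRCs, beside *Plaur* at 2.67.

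The genes nearest to *Plat* in their pattern over the 4 libraries, by Euclidean distance of centred log2(CPM + 0.5), were *Dpf1* (distance 0.0784), *Creb3l1* (0.108) and *Cd38* (0.108). Their CPM in control replicates 1 and 3 and TRC replicates 1 and 3 were 3.98, 2.21, 7.53 and 10.8 for *Dpf1*, 2.41, 1.45, 4.33 and 6.92 for *Creb3l1*, and 1.12, 0.595, 2.57 and 3.56 for *Cd38*. These were picked for their likeness, so their difference between the groups is no further result.

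Other genes of the same systems were taken from 6 lists, of which 127 genes were in the files and 56 passed the filter. In edgeR's exact test 13 were called higher and 1 was called lower in TRCs, where 8.81% and 7.05% of all genes tested were called in these directions, and their median log2 fold change was 0.20 against 0.00 over all genes tested. The smallest FDR values belonged to *Hpse*, *Bsg*, *Adamts4*, *Reck*, *Adamts9* and *Adam12*, all higher in TRCs. In the coagulation list 18 of 27 genes, and in the list of other metalloproteases 12 of 20 genes, had at most 3 counts in any library. The same held for 23768 of all 39179 genes counted, a similar share.

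In the list of plasminogen activation and its control, 2 of 7 genes tested were called higher (8.81% over all genes tested) and 1 lower (7.05%). Plasminogen itself (*Plg*) had at most 1 count per library. *Anxa2*, which binds plasminogen and its activator at the cell surface, was at 302 and 277 CPM in control cells and at 428 and 878 CPM in TRCs (log2 fold change 1.17, SE 0.31, edgeR exact test FDR = 0.00278). The TRC libraries differed by more than the controls. The FDR was 0.077 without control replicate 3, and without TRC replicate 3 the log2 fold change was 0.56 with an FDR of 0.255. *S100a10*, the partner of annexin A2, was not called, with a log2 fold change of −0.42 (FDR = 0.234). *Vldlr*, an endocytic receptor for complexes of proteases and serpins, was called with a log2 fold change of 1.97 (SE 1.34, edgeR exact test FDR = 0.0311), but control replicate 1 had 16.8 CPM and control replicate 3 had 1.76 CPM. TRCs had 29 and 43.5 CPM. Without control replicate 1 its log2 fold change was 4.37 and without control replicate 3 it was 1.11, and the FDR was 0.0745 and 0.244 without TRC replicates 1 and 3. *Igf2r*, a sorting receptor that also binds the urokinase receptor, fell from 346 ± 54 CPM to 213 ± 12.4 CPM (SD, n = 2 each; log2 fold change −0.70, edgeR exact test FDR = 0.0245). Its FDR was 0.273, 0.228 and 0.122 without control replicate 3, TRC replicate 1 and TRC replicate 3.

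Of the coagulation genes, 1 of 7 tested was called, against 15.9% of all genes tested. This was *Ggcx*, the carboxylase that matures vitamin K-dependent clotting factors, which rose from 37.8 ± 0.411 to 68 ± 1.51 CPM (SD, n = 2 each; log2 fold change 0.85, edgeR exact test FDR = 0.00275). Its FDR was 0.0544 without TRC replicate 1 and 0.0682 without TRC replicate 3. The tissue factor pathway inhibitor *Tfpi* was not called, with 153 and 123 CPM in control cells and 159 and 205 CPM in TRCs. The thrombin receptors *F2r*, *F2rl1* and *F2rl2* had 0 counts in every library, and *F2rl3* had at most 1.

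Among the other metalloproteases, 1 of 5 tested was called, where the share over all genes tested was 15.9%. *Mmp11*, a stromelysin, had 2.45 and 0.935 CPM in control cells and 5.15 and 4.76 CPM in TRCs (log2 fold change 1.54, SE 0.56, edgeR exact test FDR = 0.0254). The call was lost without control replicate 3, TRC replicate 1 and TRC replicate 3, with FDR values of 0.298, 0.183 and 0.134. The log2 fold change was 2.40 without control replicate 1 and 1.01 without control replicate 3.

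Of the inhibitors and activators of metalloproteases, 3 of 6 tested were called, all higher, as were 8.81% of all genes tested. *Reck*, a membrane-anchored inhibitor of metalloproteases, had 13.3 and 11.8 CPM in control cells and 35.6 and 34.1 CPM in TRCs. Replicates agreed closely, with a log2 fold change of 1.48 (SE 0.24, edgeR exact test FDR = 9.38e-06). *Bsg*, whose surface protein basigin induces metalloproteases in neighboring cells and carries lactate transporters to the membrane, had 325 and 335 CPM in control cells and 682 and 1388 CPM in TRCs (log2 fold change 1.65, SE 0.31, FDR = 7.56e-06). Without TRC replicate 3 its log2 fold change was 1.04. *Furin*, the convertase that cuts the proform of the *Mmp14* enzyme, rose from 53.5 ± 2.71 to 88.8 ± 21.6 CPM (SD, n = 2 each; log2 fold change 0.73, edgeR exact test FDR = 0.022). Its call was lost without control replicate 1 (FDR = 0.0997), control replicate 3 (FDR = 0.0919) and TRC replicate 1 (FDR = 0.426). *Timp1*, another inhibitor, was at 3.13 and 1.39 CPM in control cells and 2.09 and 2.6 CPM in TRCs, with overlap (log2 fold change 0.05, edgeR exact test FDR = 0.972). Its sign turned without control replicate 3, at −0.41, and without TRC replicate 3, at −0.12. *Timp3* varied with 38.1 and 9.27 CPM in control cells and 44 and 24.5 CPM in TRCs and was not called (FDR = 0.528), but without control replicate 1 its FDR was 0.000354.

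Of the ADAM and ADAMTS proteases, 4 of 17 tested were called, all higher, beside the 8.81% called higher over all genes tested. *Adamts9*, which cleaves proteoglycans, had 0.63 and 0.51 CPM in control cells and 3.37 and 3.51 CPM in TRCs (log2 fold change 2.58, SE 0.58, edgeR exact test FDR = 1.42e-05). *Adamts4*, an aggrecanase, had 34.5 and 25.9 CPM in control cells and 73.3 and 72.3 CPM in TRCs (log2 fold change 1.27, SE 0.23, edgeR exact test FDR = 8.72e-06). Both genes separated the groups with close TRC replicates. *Adam12*, a membrane-bound metalloprotease, was called at a log2 fold change of 1.76 (SE 0.80, edgeR exact test FDR = 0.000813), but its 2 control libraries differed, with 21.1 and 72.5 CPM, against 149 and 168 CPM in TRCs. Without control replicate 1 the value was 1.13 and without control replicate 3 it was 2.92. *Adamts7* was called at 1.44 (FDR = 0.022), and leaving out any of the 4 libraries ended the call, with FDR values from 0.0692 to 0.253.

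Of the remaining surface and lysosomal proteases and inhibitors, a list that also holds *Hpse*, which is neither, 2 of 14 tested were called. Both were higher, and the share was near the 15.9% called over all genes tested. *Hpse*, the heparanase that cuts heparan sulfate in the matrix, had 24.5 and 11.3 CPM in control cells and 91.8 and 222 CPM in TRCs. Its log2 fold change was 3.13 (SE 0.80, edgeR exact test FDR = 1.5e-10), with 3.80 without control replicate 1 and 2.35 without TRC replicate 3. *Ctsh*, a lysosomal cysteine protease, had 7.58 and 3.2 CPM in control cells and 17.1 and 10.2 CPM in TRCs (log2 fold change 1.34, edgeR exact test FDR = 0.0358), and its FDR was 0.354, 0.444 and 0.0549 without control replicate 3, TRC replicate 1 and TRC replicate 3. Without control replicate 1 its log2 fold change was 2.09. *Bsg*, *Reck*, *Adamts4*, *Adamts9* and *Hpse* were called in all 10 alternative fits. The call was kept in 8 of these fits for *Ggcx* and *Adam12*, in 6 for *Anxa2*, in 5 for *Igf2r*, *Mmp11*, *Furin* and *Ctsh*, in 4 for *Vldlr* and in 3 for *Adamts7*. In *Plat*, *Anxa2*, *Vldlr*, *Bsg* and *Hpse*, and by less in *Adam12*, *Ggcx* and *Adamts9*, TRC replicate 3 had the highest level. In *Reck*, *Adamts4*, *Furin*, *Mmp11*, *Adamts7* and *Ctsh*, the other genes of these lists called higher, TRC replicate 1 had the highest level. TRC replicate 3 is also the library with the largest share of alignments without a unique position. The part of that share in these levels was not tested.

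**Figure D5:**
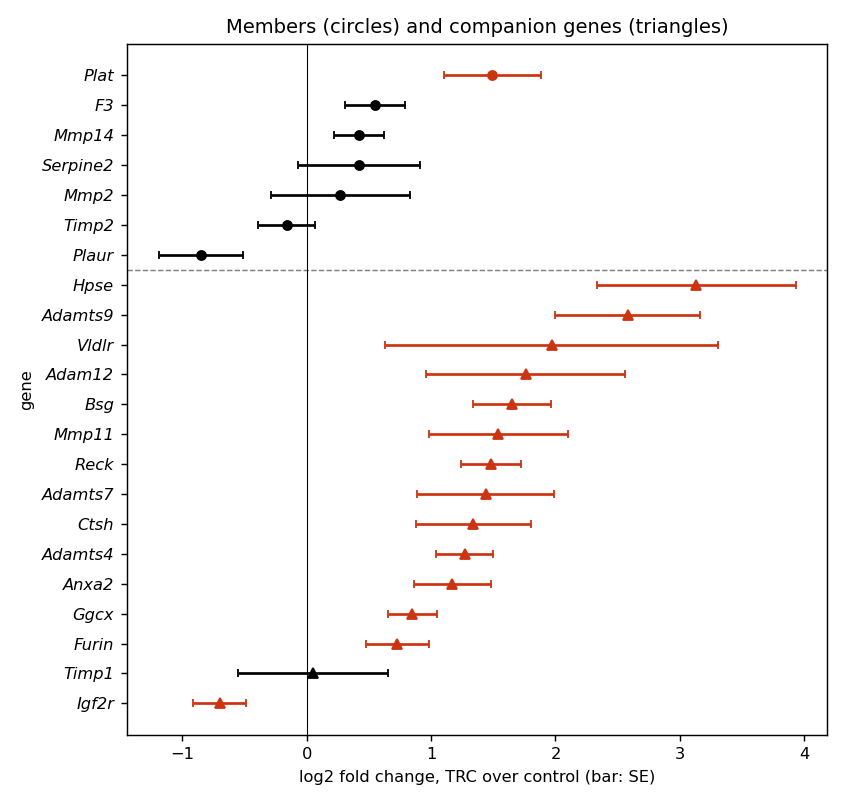
Log2 fold change of TRCs over control cells with its SE for the 7 members tested (circles, above the dashed line) and for the companion genes named by the rule that were tested (triangles), red where FDR was under 0.05 in edgeR's exact test. *Plat* at 1.49 is the one member in red, and *Hpse* lies at 3.13 and *Adamts9* at 2.58.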

How the data were processed

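RNA-seq was performed on polyA RNA of 2 control and 2 TRC samples, grouped by the sample labels. The authors used Trimmomatic 0.35 for trimming, TopHat2 2.1.0 with Bowtie2 2.2.6 and SAMtools 1.3 for alignment to GRCm38 (versions from the submitters' processing notes) and htseq-count for counting per Ensembl gene. The values deposited by the authors are raw counts. How htseq-count treated strand and overlaps is not given in the sources used here. Reads from overlapping antisense genes might therefore not be told apart.

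Rows that are no gene were removed, which left out reads on no gene, ambiguous reads and alignments without a unique position. The main test followed the study's methods, with removal of genes under 1 CPM in at least 3 of 4 samples, TMM normalization and the exact test with common and tagwise dispersions in edgeR 4.0.16 under R 4.3.3 (prior count 0.125). The call was a Benjamini-Hochberg FDR under 0.05. The paper reports somewhat fewer genes tested and called than were found here, and the cause of this difference was not tested. SE came from DESeq2 1.42.0, since the exact test gives none. Depth was 35948295 to 43511554 counts per library. What edgeR calls the biological coefficient of variation, from the common dispersion, was 21.2%, and the spread between libraries that it measures may be technical. Symbols, positions and exon lengths came from GENCODE M21 on GRCm38, and promoters from RefSeq on GRCm38.p6. The paper used an earlier Ensembl annotation for the reads, so CPM per kb divides counts by exon lengths of a later release. The fit across genes was tested on simulated data with the same dispersion for all genes. Genes with a larger spread between replicates were not covered. Plots were drawn with matplotlib 3.10.9.

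Members and lists were chosen with earlier results of these data known. Named genes are all members, *Timp1* and a further gene that is not reported here, up to 5 called genes per list with the smallest FDR, and the 3 genes nearest to *Plat* in profile. *Plg*, *S100a10*, *Tfpi*, *Timp3*, the thrombin receptors and marker genes, and in the closing section *Tgm2*, *F13a1*, *Htra1* and *Serpinf2*, were named after their values were seen. Alternatives were DESeq2 size factors, no filter, at least 10 counts in every library, the quasi-likelihood test of edgeR, alone or with the replicate number as block, DESeq2's Wald test, each library left out in turn (the lone library is then assumed to vary like the other group) and the longest transcript as length. The count ratios, with each library left out in turn, were added after the data were seen. qPCR and microscopy were not analysed here.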

Additional observations from a re-analysis of the deposited data

How the results depend on the processing

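*Plau* and *Mmp9* had few counts, the control libraries of *Plau* also differed (37 and 13 counts), and 2 libraries per group limit all calls. All members tested kept their sign under each change of filter, scaling and test. The signs that turned did so when a library was left out, with ranges of −0.42 to 0.94 for *Serpine2*, −0.35 to 0.68 for *Mmp2*, −0.35 to 0.059 for *Timp2* and −0.41 to 0.75 for *Timp1*, the last of which was −0.12 without TRC replicate 3. With a library left out, *Plat* lay between 1.18 and 1.90, and the log2 ratio of mean CPM of *Plau* between 0.13 and 1.31. The cause was not tested.

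The labels do not say that same-numbered libraries were prepared together, and the deviations of such libraries from the means of their groups had a correlation of r = 0.027, computed across genes (genes are not independent of each other). When the quasi-likelihood fit included the replicate block, *Plat* had a log2 fold change of 1.51 and an adjusted p of 0.0742, and 0 members were called.

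Over all genes tested, 1822 were called (1012 higher, 810 lower). DESeq2's Wald test gave 2036 (1090 and 946) of the same 11483 genes, and the fit with no filter 1668 (907 and 761) of 19571. The quasi-likelihood test gave 1054 (567 and 487), the fit with the block 785 (477 and 308), and leaving out a library gave 773 to 1932 (500 to 1078 higher and 269 to 854 lower). With a library left out, 0 to 1 members were called.

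Of the 56 genes of the other lists, 14 were called, 6 in the quasi-likelihood test, 8 with the block added, and 8 to 14 with a library left out. By list, the quasi-likelihood test gave 0 for plasminogen activation, 0 for other metalloproteases and 2 for ADAM and ADAMTS. In the list of remaining proteases it called 1 gene, *Hpse*. With the block it gave 0 for plasminogen activation and 0 for other metalloproteases, and DESeq2's Wald test gave 2 for ADAM and ADAMTS. With a library left out the counts were 0 to 3 for plasminogen activation, 0 to 2 for coagulation, 0 to 1 for other metalloproteases and 1 to 2 for the remaining proteases. The second coagulation gene was *Tgm2* without control replicate 1. With a library left out, the genes called were not always those of the main fit, so similar counts do not mean the same genes. With no filter 2 of 16 coagulation genes were called, the second being *F13a1*.

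With the longest transcript as length, the mean level was 2.40 CPM per kb for *Serpine2*, 18.5 for *F3* and 113 for *Mmp14*, since the transcript is shorter than the union of exons.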

Other observations

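Some genes of the lists were too low for the filter but were called when none was applied. *F13a1*, the gene of the transglutaminase chain that crosslinks fibrin, had 0 counts in both control libraries and 17 and 4 counts in TRCs (edgeR exact test FDR = 0.0103 over 19571 genes). *Htra1*, a secreted serine protease, had 12 and 6 counts in control cells and 0 in both TRC libraries (FDR = 0.00593). *Serpinf2*, the gene of the main plasmin inhibitor, had 8 and 15 counts in control cells and 0 and 2 counts in TRCs (FDR = 0.0249). These values rest on few counts, and in each gene the lower group has a library at 0, so no fold change is given.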
